A study of Mus musculus with 35 samples.

Results

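Sprr2f, Tmem61, Nrip3 and Hsbp1l1 were chosen by their rise in the kidney on loss of Flcn and because little is known of them there, and they are 4 of the 31053 genes counted in 35 libraries of mouse kidney. The values that selected them are those of the libraries labelled Flcn KO against their controls. For the 4 genes that contrast is therefore given as a description and without a test. Their tests are on 2 further crosses that the choice did not use, while other genes were also tested in Flcn KO. Each library holds RNA of a whole kidney taken at postnatal day 2, of either sex, from mice on a C57BL/6 background. Mice labelled Flcn KO were Flcn flox/flox; Ksp-cre+, in which Cre is driven by the promoter of Cdh16 and is active in thick ascending limb, distal tubule and collecting duct, so the rest of the kidney kept its Flcn. Flcn/Tfeb DKO mice carried Tfeb flox/flox beside Flcn flox/flox and Ksp-cre+, with both deletions in the same segments, and Flcn/Tfe3 DKO mice were Flcn flox/flox; Ksp-cre+; Tfe3-/-, a deletion labelled for the whole mouse rather than for these segments. Controls of the Flcn cross were Flcn flox/flox, and the alleles carried by the controls of the other crosses were not given in the sources used here.

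There were 5 libraries of Flcn KO and 5 controls, 4 of Flcn/Tfeb DKO and 3 controls, all in set A. The Flcn/Tfe3 libraries fell into set B (6 of Flcn/Tfe3 DKO, 3 controls) and set C (4 of Flcn/Tfe3 DKO, 5 controls). What separates set B from set C was not given beyond their being separate tables with differently named columns. Alignment tallies were at hand for set C and not for set B. Reads on genes ranged from 1652649 to 4239356 per library, so that a count of 0 allows a level of up to 0.708 to 1.82 CPM (counts scaled to a common library size), the limit set by 3 counts and covering counting error only. The CPM of genes below are on library sizes scaled by TMM over the 35 libraries. Flcn itself did not check the labels, with a log2 fold change of 0.088 ± 0.20 (SE) in Flcn KO against controls (adjusted p = 0.93, edgeR quasi-likelihood F test), and a 3′ read can lie outside the deleted exons. Tfeb was at −0.73 ± 0.38 in Flcn/Tfeb DKO (adjusted p = 0.80) and Tfe3 at −0.086 ± 0.14 in Flcn/Tfe3 DKO (adjusted p = 0.94), so neither checked its label, with the same limit on 3′ reads. The mean of Tfe3 was 18.7 CPM in Flcn/Tfe3 DKO and 19.2 in its controls, against 30.8 to 36.5 in the groups of set A. A difference between sets and the alleles of these controls, which were not given, cannot be told apart here. Cdh16, whose promoter drives the Cre, was present in all groups and its log2 fold change lay between −0.40 and 0.055 in the 3 crosses, with no call.

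Folliculin, the product of Flcn, acts at the lysosome and lets mTORC1 phosphorylate the transcription factors TFEB and TFE3, which keeps them in the cytoplasm. When folliculin is lost, both enter the nucleus and bind E-box sequences, among them the CLEAR element in promoters of lysosomal genes. Sprr2f is a small proline-rich protein of the family that is cross-linked into the cornified envelope of stratified epithelia. Tmem61 is named as a transmembrane protein, though the annotation used here lists the counted gene as a lincRNA. Nrip3 is named as a nuclear receptor interacting protein, and Hsbp1l1 is a relative of Hsbp1, which binds heat shock factor 1.

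On mm10, with the annotation of GENCODE M21, Sprr2f (ENSMUSG00000050635) lies at chr3:92365187-92366442 on the plus strand and has 2 exons. Tmem61 (ENSMUSG00000085933) lies at chr4:106498816-106506335 on the minus strand, and this annotation lists it as a lincRNA. Nrip3 (ENSMUSG00000034825), a protein-coding gene, lies at chr7:109758055-109782025 on the minus strand. Since the members of the Sprr2 family resemble each other, the last 500 bases of every annotated transcript of the 4 genes were compared in windows of 100 bases with all other transcripts, and 0 windows were identical to a transcript of another gene. The coding sequence of Sprr2f at chr3:92365896-92366123 is printed to make plain what the proline-rich repeat is. Codons of the form CCN, which encode proline, are in capitals and make up 30 of its 76 codons.
Sprr2f coding sequence: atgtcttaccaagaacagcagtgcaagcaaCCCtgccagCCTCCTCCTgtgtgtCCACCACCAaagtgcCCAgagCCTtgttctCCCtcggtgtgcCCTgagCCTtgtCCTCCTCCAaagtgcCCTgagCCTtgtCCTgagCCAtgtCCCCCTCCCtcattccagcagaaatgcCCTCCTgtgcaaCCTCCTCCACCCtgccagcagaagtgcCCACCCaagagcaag

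The promoters of Sprr2f and Tmem61 were given with the reference (RefSeq, GRCm38.p6, 2 of the 4 genes matched) and are shown because TFEB and TFE3 are known to bind E-boxes. The 250 bases before the start are printed, chr3:92364937-92365186 on the plus strand and chr4:106506336-106506585 on the minus strand, with TATAAA in capitals.
Sprr2f promoter: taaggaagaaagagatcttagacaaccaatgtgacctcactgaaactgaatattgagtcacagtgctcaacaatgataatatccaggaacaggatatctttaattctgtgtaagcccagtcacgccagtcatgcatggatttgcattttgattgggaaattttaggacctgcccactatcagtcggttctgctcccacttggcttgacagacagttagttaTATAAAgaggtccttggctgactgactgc
Tmem61 promoter: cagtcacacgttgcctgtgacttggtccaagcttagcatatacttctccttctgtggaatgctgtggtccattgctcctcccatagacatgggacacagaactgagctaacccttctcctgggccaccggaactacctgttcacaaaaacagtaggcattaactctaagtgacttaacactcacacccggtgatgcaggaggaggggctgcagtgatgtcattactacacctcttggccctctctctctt
In the window from 250 bases before to 50 after the start, searched on both strands, neither promoter holds the E-box CACGTG, which 7.15% of 32851 promoters hold. Neither holds TCACGTGA (0.974% of promoters), which contains CACGTG, nor GTCACGTG (2.25%), which also contains it, nor the M-box core CATGTG (14.2%). TATAAA occurs in the Sprr2f promoter, its first base 29 bases before the start, and not in that of Tmem61, and 13.6% of promoters hold it. These matches say only which letters are in this window.

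**Figure D1:**
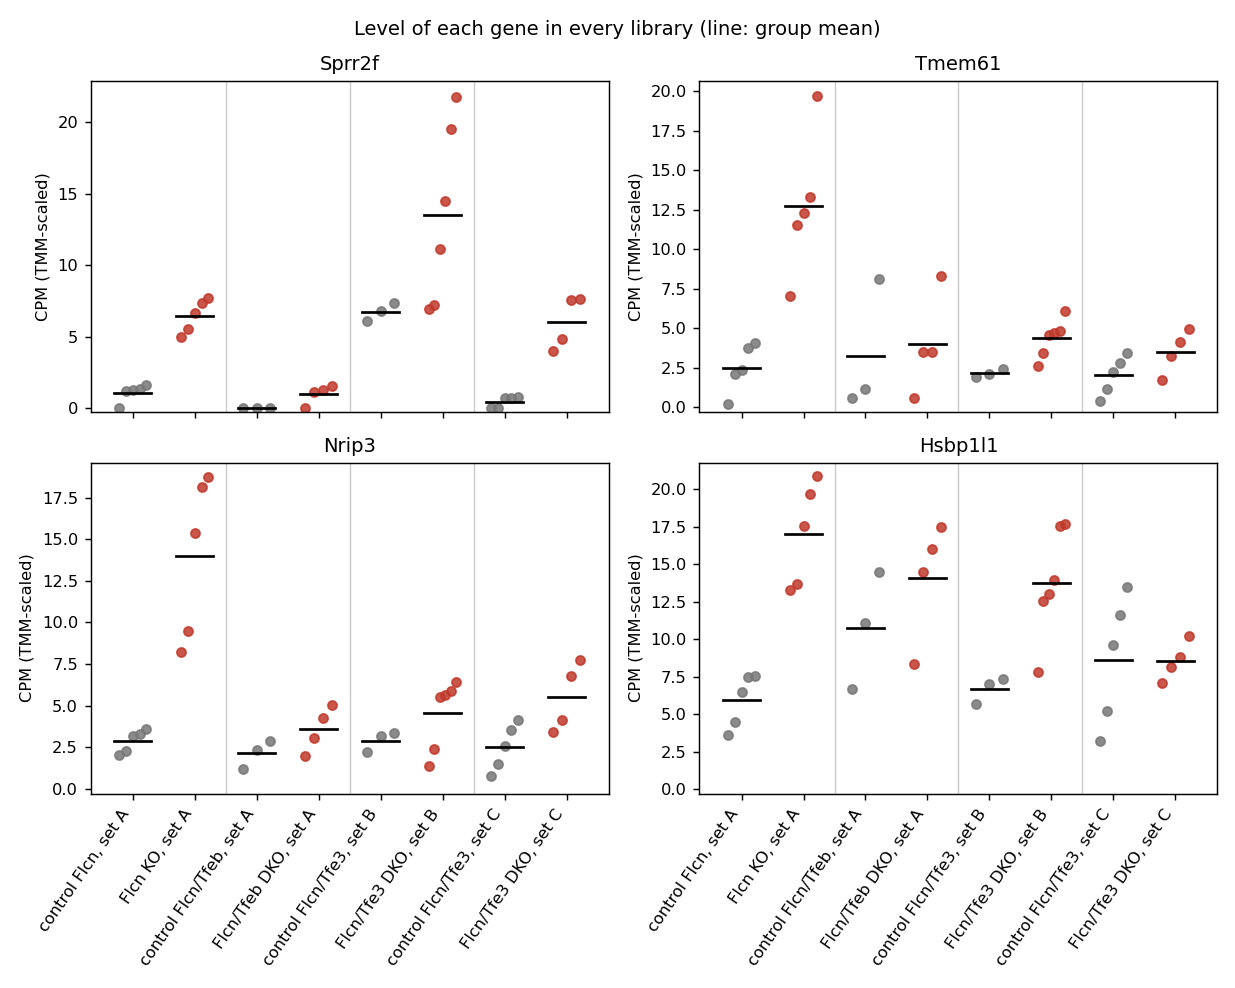
CPM (scaled by TMM) of Sprr2f, Tmem61, Nrip3 and Hsbp1l1 in each of the 35 libraries, by group and set, with control libraries in grey, KO and DKO libraries in red and a line at each group mean. The Sprr2f controls of set B sit between 6.06 and 7.36 CPM, above all other controls, and the Flcn KO libraries hold the highest group means of Tmem61, Nrip3 and Hsbp1l1.

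Sprr2f had 16, 23, 15, 12 and 17 counts in the 5 libraries of Flcn KO and 0, 3, 3, 5 and 4 in their controls. All libraries of Flcn KO lay above all controls, at 5.0 to 7.68 CPM against 0 to 1.60. This was so for each of the 4 genes and for 1.66% of all genes tested in the cross, from which nothing is read, since this contrast chose them. The log2 fold change was 2.49 ± 0.40 (SE, n = 5 and 5), a value that served to choose the gene. In RNA of a whole kidney, more cells that express a gene and more RNA per cell cannot be told apart, and this holds for each value below.

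In the Flcn/Tfeb cross Sprr2f was near the floor. The 3 controls held 0 counts each and the 4 libraries of Flcn/Tfeb DKO 4, 2, 3 and 0. In the controls 3 counts in a library correspond to as much as 1.64 CPM on library totals. The highest Flcn/Tfeb DKO library was at 1.56 CPM on sizes scaled by TMM, so no fold is given. The exact permutation test of the difference within the cross gave p = 0.14 (two-sided, 35 regroupings, 4 against 3, smallest possible p 0.029), and this test was run for each of the 4 genes in 2 crosses.

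In the Flcn/Tfe3 cross Sprr2f was higher in Flcn/Tfe3 DKO than in controls over the sets together. In set C the 4 DKO libraries held 17, 28, 13 and 26 counts and the 5 controls 0, 1, 2, 0 and 2. These groups did not overlap, which was so, with the DKO higher, for 4.02% of the genes tested. The 84 counts against 5 gave a ratio of 16 on library totals (95% exact counting interval 6.59 to 50.5, which leaves out the spread between libraries). In set B the controls held 31, 25 and 25 counts, 6.06 to 7.36 CPM, and the 6 libraries of Flcn/Tfe3 DKO ranged from 6.90 to 21.8 CPM with a median of 12.8. Here 4 of 6 DKO libraries lay above the highest control and 6 of 6 above the control median, and the groups overlapped. By exact permutation of all libraries of a set, with no filter, p was 0.0079 in set C, the smallest it can give there, and 0.083 in set B (two-sided).

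Over both sets, with the set as a term, the log2 fold change of Sprr2f was 1.70 ± 0.37 (SE, n = 10 and 8), with an adjusted p of 0.036 in edgeR's quasi-likelihood F test with Benjamini-Hochberg adjustment. It was the only one of the 4 genes called in this cross, where 47 of 12456 genes tested were called (0.377%), 42 of them higher (0.337%), and its log2 fold change was the 4th largest. The exact permutation test within sets gave p = 0.00066 (two-sided, 10584 regroupings). The 5 markers of red blood cells had log2 fold changes of −0.89 to −0.61 in Flcn/Tfe3 DKO (unadjusted p = 0.0045 to 0.018, 0 called, edgeR), and their sum was 1411 to 1854 CPM in the DKO libraries of set C against 2084 to 7463 in its controls, and 3247 to 6160 against 3662 to 5877 in set B. Reads on genes in set C were 3159884 to 3555791 in DKO libraries and 1719367 to 2909353 in controls. The part of either in the Sprr2f values was not tested. Sprr2f was also called in DESeq2 (adjusted p = 0.00025), in the likelihood ratio test (0.00014), without a filter (0.0084) and with a spread shared over all libraries (0.0098). The call of the quasi-likelihood test stood close to the threshold. Without any 1 of 13 of the 18 libraries, that is all but control replicates 1 and 3 and DKO replicates 1, 3 and 5, the adjusted p rose to between 0.055 and 0.077. Nor was it called with Xist, the mitochondrial share or the replicate block in the fit (adjusted p = 0.089, 0.13 and 0.9999). In set B alone the log2 fold change was 0.9986 (adjusted p = 0.75). In set C alone it was 3.66, and the p of that fit is left out, since Sprr2f passed the filter on low counts there only through the DKO libraries, in which it was high. In the fit of both sets the filter asked for 2.94 CPM on library totals in 8 of the 18 libraries. This was reached by 10 of 10 DKO libraries and 3 of 8 controls, so there too the gene passed through the DKO group. The adjusted p of 0.036 and those of DESeq2 and the likelihood ratio test carry that limit, and the fit without a filter does not. The exact permutation tests use no filter.

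The controls of the 2 sets stood apart in the level of Sprr2f, while the DKO libraries of set B (6.90 to 21.8 CPM) and of set C (4.01 to 7.65 CPM) overlapped. The effect in set C less that in set B was 2.73 ± 0.73 on the log2 scale (adjusted p = 0.059), in a fit that called 162 of 12456 genes (1.3%). A fit of the 3 controls of set B against the 5 of set C was added after these values were seen, and since they prompted it the log2 fold change of Sprr2f, 3.86 ± 0.62 (SE), is a description with no test. Of the 12426 genes in that fit 802 (6.45%) were called in either direction. The set B controls had 6.74 ± 0.65 CPM (SD, n = 3), close to the 6.44 ± 1.15 of Flcn KO (n = 5) and the 6.02 ± 1.87 of Flcn/Tfe3 DKO in set C (n = 4), although these come from separate tables. The controls of set C had 0.434 ± 0.398 CPM (n = 5), and those of the Flcn cross 1.08 ± 0.62 (n = 5).

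The family of Sprr2f is known from stratified epithelia, and the markers of such cells were set beside it. The 6 markers of urothelium and stratified epithelium summed to 95.5 to 106 CPM in the set B controls and to 58.5 to 171 in those of set C, and 0 of the 4 that were tested were called between the sets. In the same comparison 0 of 4 tested genes of the small proline-rich and cornified envelope list were called. Of 55 markers tested in all 12 cell type lists, 4 were called higher in set B and 4 lower. Higher were Six2 (1.33) and Cited1 (1.48) of nephron progenitors and Csf1r (0.83) and C1qa (0.85) of myeloid cells, and lower were Kcnj1 (−1.08) of the thick ascending limb, Cubn (−1.04) of the proximal tubule, Atp6v1g3 (−0.83) of intercalated cells and Pdgfra (−0.70) of stroma. The medians of the lists that held a lower marker were 0.039 (thick ascending limb), −0.27 (proximal tubule), 0.39 (intercalated cells) and 0.010 (stroma). Uncalled members of these lists reached 0.34 (Umod), 0.61 (Miox), 0.83 (Slc4a1) and 0.67 (Col1a1) in the other direction. The part of these cells in the Sprr2f level was not tested.

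Tmem61 had 41, 40, 36, 20 and 24 counts in Flcn KO and 8, 9, 4, 1 and 8 in the controls, again without overlap. The log2 fold change that chose it was 2.43 ± 0.43 (SE, n = 5 and 5). Its CPM were 7.06 to 19.7 against 0.25 to 4.06.

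In the Flcn/Tfeb cross Tmem61 varied too widely to place. The 3 controls held 1, 14 and 4 counts and the 4 libraries of Flcn/Tfeb DKO 9, 1, 22 and 9. The groups overlapped over nearly their whole range, 0.58 to 8.09 CPM against 0.63 to 8.33, and the log2 fold change was 0.46 ± 0.85 (adjusted p = 0.89). The exact permutation test gave p = 0.60 (two-sided, 35 regroupings). Without control replicate 2, which held 14 counts, the log2 fold change was 2.10 and also not called, and without control replicate 1, control replicate 3 or DKO replicate 3 it was −0.0075, −0.042 or −0.15.

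Tmem61 had a mean of 4.04 ± 1.29 CPM (SD, n = 10) in Flcn/Tfe3 DKO and of 2.07 ± 0.94 (n = 8) in its controls. In set B the controls held 9, 10 and 7 counts and the 6 DKO libraries 2.65 to 6.13 CPM (median 4.66) against 1.91 to 2.42. All 6 lay above all 3 controls, which held for 1.71% of the genes tested in that set. In set C the 4 DKO libraries held 6, 12, 16 and 14 counts and the 5 controls 1, 5, 8, 6 and 3, and the ranges overlapped. Over both sets the log2 fold change was 0.91 ± 0.31 (SE, n = 10 and 8), with an unadjusted p of 0.0063 and an adjusted p of 0.38 in edgeR, and it was not called. It passed the filter through 8 DKO libraries and 0 controls, and without a filter the adjusted p was 0.43. The exact permutation test within sets gave p = 0.0084 (two-sided, 10584 regroupings). For set B alone it gave p = 0.012, the smallest it can give there, and for set C alone p = 0.18. The effects in the 2 sets differed by −0.19 ± 0.64, well within their error.

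Nrip3 had 39, 33, 49, 25 and 28 counts in Flcn KO and 7, 5, 6, 8 and 12 in the controls. These are 8.24 to 18.7 CPM against 2.00 to 3.60, with all libraries of Flcn KO above all controls. The log2 fold change that chose it was 2.27 ± 0.32 (SE, n = 5 and 5).

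In Flcn/Tfeb DKO Nrip3 held 5, 8, 8 and 11 counts and in the controls 2, 5 and 8. The levels of 1.95 to 5.03 CPM overlapped those of the controls, 1.16 to 2.89, and 3 of 4 DKO libraries lay above the highest control. The log2 fold change was 0.69 ± 0.54 (adjusted p = 0.80), and the exact permutation test gave p = 0.20 (two-sided, 35 regroupings).

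Nrip3 had a mean of 4.92 ± 2.03 CPM (SD, n = 10) in Flcn/Tfe3 DKO and of 2.65 ± 1.12 (n = 8) in its controls. The 6 DKO libraries of set B had 1.39 to 6.40 CPM (median 5.58) and the controls 14, 13 and 8 counts, or 2.18 to 3.33 CPM. DKO replicates 3 and 6, with 5 and 10 counts, fell into or below the control range and the other 4 lay above it. In set C the DKO libraries held 12, 25, 25 and 14 counts and the controls 6, 6, 10, 4 and 2, with 3 of 4 above the highest control. Over both sets the log2 fold change was 0.89 ± 0.32 (SE, n = 10 and 8, adjusted p = 0.44 in edgeR, unadjusted p = 0.011). It passed the filter through 8 DKO libraries with 4 controls also at its minimum, and without a filter the adjusted p was 0.42. The exact permutation test within sets gave p = 0.033 (two-sided, 10584 regroupings). For set B alone it gave p = 0.38 and for set C alone p = 0.063.

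Hsbp1l1 (ENSMUSG00000078963), protein-coding like Nrip3, lies at chr18:80229758-80247102 on the minus strand. It had 41, 61, 37, 34 and 45 counts in Flcn KO and 16, 8, 14, 26 and 15 in the controls. The CPM were 13.2 to 20.9 against 3.61 to 7.54 and did not overlap. Its log2 fold change, 1.52 ± 0.25 (SE, n = 5 and 5), was the smallest of the 4.

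Hsbp1l1 was the only one of the 4 genes to pass the filter on low counts in the Flcn/Tfeb cross. Its DKO libraries held 41, 23, 22 and 45 counts, or 8.33 to 17.5 CPM, and the controls 19, 25 and 23, or 6.68 to 14.5. The groups overlapped, and the log2 fold change of 0.44 ± 0.36 was not called (adjusted p = 0.80, edgeR). It ran from 0.14 to 0.72 with 1 library left out and was −0.0055 with the mitochondrial share in the fit. Exact permutation gave p = 0.31 (two-sided, 35 regroupings). The controls of this cross stood higher, at 10.7 ± 3.90 CPM (SD, n = 3), than the 5.92 ± 1.78 of the Flcn controls (n = 5), a difference that was not tested.

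In the Flcn/Tfe3 cross the values of Hsbp1l1 were not alike in the 2 sets. In set B the 6 DKO libraries had 7.78 to 17.7 CPM (median 13.5) against 24, 29 and 27 counts, or 5.70 to 7.35 CPM, in the controls, without overlap (1.71% of the genes tested). In set C the DKO libraries held 31, 30, 33 and 24 counts, 7.06 to 10.2 CPM, all inside the 3.19 to 13.5 CPM of the controls, which held 12, 14, 9, 36 and 30 counts. The control replicates 7 and 8 of set C lay above all 4 DKO libraries of that set. Over both sets the log2 fold change was 0.50 ± 0.26 (SE, n = 10 and 8, adjusted p = 0.72 in edgeR), and the exact permutation test within sets gave p = 0.065 (two-sided, 10584 regroupings). The log2 fold change was 1.04 in set B alone and −0.058 in set C alone. Exact permutation gave p = 0.012 in set B, the smallest it can give there, and 0.76 in set C (two-sided). The effect in set C less that in set B was −1.05 ± 0.47 (unadjusted p = 0.033, adjusted p = 0.19), opposite in sign to that of Sprr2f.

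**Figure D2:**
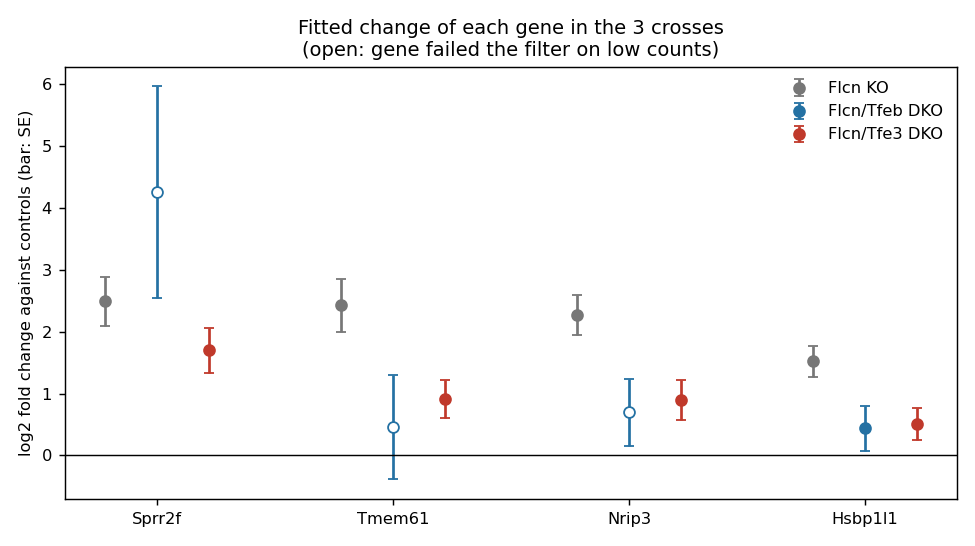
Fitted log2 fold change against controls, with SE bars, of the 4 genes in Flcn KO (grey), Flcn/Tfeb DKO (blue) and Flcn/Tfe3 DKO (red), open where the gene failed the filter on low counts. The Flcn KO values that chose the genes run from 1.52 to 2.49, the Flcn/Tfe3 values from 0.50 to 1.70, and the open Sprr2f point rests on 0 counts in the controls and is no measure of its size.

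Side by side, the log2 fold changes in Flcn/Tfe3 DKO and in Flcn KO were 1.70 and 2.49 for Sprr2f, 0.91 and 2.43 for Tmem61, 0.89 and 2.27 for Nrip3, and 0.50 and 1.52 for Hsbp1l1. The Flcn KO values chose the genes and tend to be raised by that choice, so nothing is read from the gap. In Flcn/Tfeb DKO Tmem61, Nrip3 and Hsbp1l1 were at 0.46, 0.69 and 0.44, and no fold is given for Sprr2f. The order of the 4 genes in Flcn/Tfe3 DKO was another in each set alone, with Hsbp1l1 the highest in set B at 1.04 and Nrip3 (1.14) above Tmem61 (0.78) in set C. In Flcn KO 62 of 11932 genes tested were called (0.52%), which is the contrast of the choice, and nothing is read from it. In Flcn/Tfeb DKO 0 of 12469 genes were called (0%) in edgeR, 631 had an unadjusted p under 0.05, and 319 (2.56%) had every DKO library above every control, which was so for 0 of the 4 members. DESeq2 also called 0 there.

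The Flcn/Tfe3 and Flcn/Tfeb effects were compared as an interaction, each being taken against its own controls. All Flcn/Tfeb libraries are in set A and all Flcn/Tfe3 libraries in sets B and C. A difference by the gene lost could therefore not be told apart from a difference by set. None of the 4 genes was called, in a fit that called 3 of 13637 genes (0.022%). The Flcn/Tfe3 effect less the Flcn/Tfeb effect was 0.46 ± 0.79 for Tmem61, 0.18 ± 0.69 for Nrip3 and 0.044 ± 0.48 for Hsbp1l1, with adjusted p values of 0.83, 0.93 and 0.98. For Sprr2f it was −2.91 ± 2.01 (adjusted p = 0.55), a value that rests on the controls at 0 counts. These p values do not show that the crosses were alike.

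Genes that flank the 4 members were set beside them. Sprr2f lies between Sprr2e, which had 0 counts in all 35 libraries, and Sprr2h, which had 2 counts in 1 library. Bsnd, a subunit of the chloride channels of the thick ascending limb and intercalated cells, lies 6533 bases from Tmem61. Its log2 fold change was 0.59 ± 0.23 in Flcn KO (adjusted p = 0.42), −0.20 ± 0.27 in Flcn/Tfeb DKO (adjusted p = 0.85) and 0.48 ± 0.15 in Flcn/Tfe3 DKO (adjusted p = 0.27, unadjusted p = 0.0030), all edgeR. Beside Nrip3, Scube2 had 0.28 ± 0.28, −0.12 ± 0.48 and 0.64 ± 0.27, and Tmem9b lay between −0.16 and 0.13 in the 3 crosses. Txnl4a and Pqlc1, which flank Hsbp1l1, lay between −0.16 and 0.31. None of these flanking genes was called in any of the 3 crosses in which it was tested, and of all genes tested at most 0.52% were called.

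**Figure D3:**
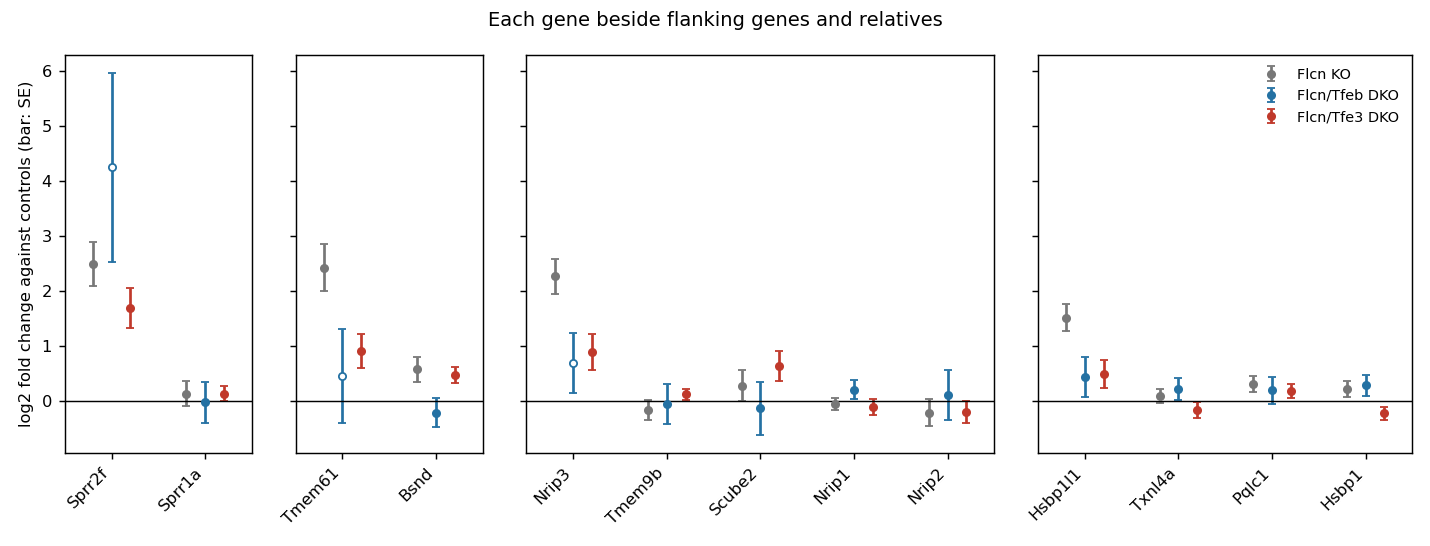
Fitted log2 fold change against controls, with SE bars, of each of the 4 genes beside flanking genes and relatives in the 3 crosses (colours and open points as for the plot of fitted changes). In Flcn/Tfe3 DKO each of Sprr2f, Tmem61 and Nrip3 stands above the genes shown beside it, and Bsnd and Scube2 come nearest. The Flcn KO values chose the 4 genes, so nothing is read from their place above other genes there.

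No relative of Sprr2f, Nrip3 or Hsbp1l1 that had enough counts to be tested was called in any cross, and no relative of Tmem61 was listed. Of all genes tested, 0.52% were called in Flcn KO, 0% in Flcn/Tfeb DKO and 0.377% in Flcn/Tfe3 DKO, so nothing is read from the lack of calls. Of the small proline-rich and cornified envelope list, 23 genes other than Sprr2f are in the counts, 10 of them at 0 in all libraries. Sprr1a, the one other Sprr gene with more than a few counts, had 4863 counts in all against 597 of Sprr2f, and its log2 fold change was 0.14 ± 0.23 in Flcn KO, −0.012 ± 0.37 in Flcn/Tfeb DKO and 0.14 ± 0.14 in Flcn/Tfe3 DKO. Sprr2a3 had 22 counts over 13 libraries. Of the list, 4 genes were tested in the Flcn and Flcn/Tfeb crosses and 5 in the Flcn/Tfe3 cross, and 0 were called, with medians of 0.0035, 0.0032 and 0.026 beside medians of all genes tested of −0.0074, −0.017 and 0.0090. Krt10, Evpl and Ppl, structural genes of stratified epithelium, lay between −0.22 and 0.22 in the DKO crosses, and in Flcn KO Evpl was at −0.60 ± 0.27 (unadjusted p = 0.037, adjusted p = 0.51, edgeR).

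Of 17 heat shock factor genes other than Hsbp1l1, 16 were tested in each cross and 0 were called, with medians of −0.10, −0.18 and 0.028. Hsbp1 was at 0.23 ± 0.14 in Flcn KO, 0.29 ± 0.20 in Flcn/Tfeb DKO and −0.22 ± 0.12 in Flcn/Tfe3 DKO. Hspa1b, an inducible chaperone, was the lowest of the list in Flcn KO at −1.04 ± 0.25 (unadjusted p = 0.00056, adjusted p = 0.077, edgeR). Hspa1a, a near copy, was the lowest of the list in Flcn/Tfeb DKO at −1.26 ± 0.37 (unadjusted p = 0.0061, adjusted p = 0.80, edgeR). Reads that align to both copies are outside the counts of each. In Flcn/Tfe3 DKO Hspa1b was at 0.25 ± 0.17 and Hspa1a at 0.039 ± 0.20. The lowest of the list there was Hspe1 at −0.60 ± 0.25 (unadjusted p = 0.027, adjusted p = 0.57, edgeR). Nrip1, a corepressor of nuclear receptors, and Nrip2 lay between −0.20 and 0.21 and were not called.

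Among themselves the 4 genes varied little together. Over the 25 libraries of the Flcn/Tfeb and Flcn/Tfe3 crosses, in log2 CPM centred on the controls that belong to each cross and set, the highest Pearson r of the 6 pairs was 0.44, for Sprr2f and Nrip3. Less the mean of each group and set, which removes the difference between DKO and control, the r of that pair was −0.16, and the 6 pairs over all 35 libraries lay between −0.15 and 0.20. The libraries of a pair share their depth and the counts are low, so these r are descriptions.

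The 3 genes whose pattern over the 25 libraries was most like that of Sprr2f, out of 12358 with a mean of at least 10 counts, were Olfm1 (r = 0.87), Rhcg (0.80) and Fstl3 (0.79). Olfm1, a secreted olfactomedin glycoprotein, was itself called in Flcn/Tfe3 DKO at 0.70 ± 0.12 (adjusted p = 0.0044, edgeR), and its r with Sprr2f within groups was 0.47. Rhcg, an ammonia transporter of the distal nephron and collecting duct, was at 0.33 ± 0.13 there (adjusted p = 0.49). In Flcn KO Rhcg was called at 0.72 ± 0.14 and Fstl3, a secreted follistatin-like protein, at 0.82 ± 0.11 (adjusted p = 0.022 and 0.00070, edgeR). For Hsbp1l1 they were Atp6v1g3 (r = 0.84), a proton pump subunit of intercalated cells, Zfp2 (0.78) and S100a1 (0.77), and these kept r of 0.73, 0.71 and 0.66 within groups. Of these, Atp6v1g3 (1.31 ± 0.18) and S100a1 (0.74 ± 0.16) were also called in Flcn KO (adjusted p = 0.00086 and 0.041, edgeR). Tmem61 was most like Dus3l (0.72), Rabl3 (0.70) and E2f3 (0.63), and Nrip3 most like Gpr107, Itgb4 and Magi3 (0.70, 0.70 and 0.67), none of which was called in the 3 crosses. These are the best of many genes and no more than a description.

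Markers of the cells in which Cre acts differed in direction between lists. The 5 intercalated cell markers summed to 328 to 410 CPM in Flcn KO against 151 to 208 in controls, to 240 to 263 in Flcn/Tfeb DKO against 178 to 228, to 263 to 380 against 150 to 192 in set B and to 240 to 308 against 172 to 266 in set C. Of these 5, Atp6v1g3 was called in Flcn KO (1.31 ± 0.18, adjusted p = 0.00086, edgeR) while Foxi1 was at 0.83 ± 0.28 and Slc4a1 at 0.68 ± 0.24 (unadjusted p = 0.0085 and 0.012), Slc26a4 at −0.22 ± 0.25 and Atp6v1b1 at −0.019 ± 0.14. In the DKO crosses 0 were called. In Flcn/Tfe3 DKO all 5 were above 0, from 0.061 to 0.69 with a median of 0.34 (0.0090 over all genes tested), and Atp6v1g3 was at 0.69 ± 0.17 (unadjusted p = 0.00060, adjusted p = 0.11). Foxi1, their transcription factor, was at −1.01 ± 0.55 in Flcn/Tfeb DKO and 0.69 ± 0.20 in Flcn/Tfe3 DKO. Of 4 thick ascending limb markers Umod alone was called, at 1.0 ± 0.12 in Flcn KO and 0.71 ± 0.10 in Flcn/Tfe3 DKO (adjusted p = 0.00040 and 0.00022), while Slc12a1 of the same segment was at 0.18 ± 0.15 and 0.083 ± 0.11. In these 2 contrasts Cldn16 was at −0.29 ± 0.21 and −0.19 ± 0.16 and Kcnj1 at 0.14 ± 0.13 and −0.040 ± 0.14. In Flcn/Tfeb DKO the 4 markers ran from −0.51 to 0.013. The 8 principal cell markers summed to 426 to 550 CPM in Flcn KO and 478 to 579 in controls, with Scnn1b called in Flcn KO at 0.58 ± 0.13 (adjusted p = 0.049). Aqp2, the water channel of these cells, was at −0.48 ± 0.14 in Flcn KO and −0.40 ± 0.11 in Flcn/Tfe3 DKO (unadjusted p = 0.0026 and 0.0018), not called. The 8 principal cell markers went both ways in Flcn/Tfe3 DKO, from −0.57 (Avpr2) to 0.42 (Scnn1g) with a median of −0.032, and 0 were called. The 4 distal convoluted tubule markers summed to 217 to 314 CPM in Flcn KO and 298 to 325 in controls, with Calb1 at −0.67 ± 0.17 (unadjusted p = 0.0011, adjusted p = 0.11), and 0 of them were called in the 3 crosses. No marker of these 4 lists was at 0 in all libraries. The part of these cells in the levels of Sprr2f, Tmem61, Nrip3 and Hsbp1l1 was not tested.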

How the data were processed

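Total RNA of kidneys was made into QuantSeq 3′ mRNA libraries and read from 1 end, so that a gene's count does not grow with its length. Per the study's methods the authors trimmed mouse reads with bbduk, used STAR for alignment to mm10 and HTSeq-count for counting. Per the labels the tools were Trim Galore and STAR. The deposited values are whole-number counts per gene, without the study's later normalization, and 99.9% of the gene identifiers are in GENCODE M21. In 26 libraries with alignment tallies, the tally of alignments to several places lay outside the gene counts. It was 33.7 to 49.4% of the sum of gene counts and the tallies for several places, no gene and ambiguous genes. Unaligned reads are not in that sum, and a read may be tallied more than once, so this is not a share of all reads. The columns used hold 35 libraries. Low counts limit the precision of these genes.

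The 4 genes, their comparisons and the gene lists were chosen with earlier results of these data known. Each comparison was fitted over all genes in edgeR 4.0.16 (R 4.3.3) with filterByExpr and TMM factors by its two-sided quasi-likelihood F test, with set as a term in the Flcn/Tfe3 cross. A gene was called at a Benjamini-Hochberg adjusted p under 0.05. Sprr2f, Tmem61 and Nrip3 did not pass the filter in the Flcn/Tfeb cross and were kept in a second fit there, a choice made after seeing the data. Single genes were tested by exact permutation of libraries, within sets, on log2(CPM + 0.5). Log2 CPM have a prior count of 2. Genes named are the 4 members, the deleted genes and Cdh16, flanking genes, relatives, list genes that were called or averaged 10 counts or more in a group, and the 3 genes most like each member. One flanking gene is not reported here. Other genes were named after their values were seen. Promoters are from RefSeq. Nothing says that libraries of 1 group came from separate litters, so p-values measure the spread between these libraries. Pairs of libraries in a group differed by more than counting noise (63 pairs, chi-square per degree of freedom at least 2.71). Alternatives were RLE factors, library totals, other filters, DESeq2 1.42.0, the likelihood ratio test, a covariate (Xist or the mitochondrial share), a block by replicate number, sets alone, a spread shared over more libraries, and leaving out each library. The scripts were tested on simulated data. Plots were drawn with matplotlib 3.10.9 (Python 3.11.15).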

Additional observations from a re-analysis of the deposited data

Results flagged for a closer look

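In the 6 groups of 4 to 6 libraries (24 tests over Sprr2f, Tmem61, Nrip3 and Hsbp1l1) a single library was sought that stood far from the others, by the gap to its nearest neighbour over the range of the group. One did. Sprr2f had 0 counts (0 CPM) in control Flcn replicate 1, and the next control was at 1.20 CPM. The gap was 0.752 of the range. Such a test flags about 5% of groups by chance, and a count of 0 in that library is within the limit that 3 counts set.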

How the results depend on the processing

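Under the alternatives other than leaving out a library, 153 of 165 log2 fold changes of the 4 genes outside the Flcn cross kept their direction and their side of the threshold, and the cause of the other changes was not tested. Sprr2f in the Flcn/Tfe3 cross was not called with the Xist covariate (log2 fold change 1.74), with the mitochondrial share (1.63), with the replicate block (1.40) or in set B alone (0.9986), and its range over the libraries left out was 1.57 to 1.91. Hsbp1l1 in that cross was −0.058 in set C alone. In the Flcn/Tfeb cross, with the mitochondrial share in the fit, Tmem61 was −0.67 and Hsbp1l1 −0.0055, and Tmem61 ranged from −0.15 to 2.10 over the libraries left out. Of the Flcn/Tfe3 less Flcn/Tfeb effects, Hsbp1l1 was −0.077 with the replicate block and −0.49 with set C alone, Nrip3 was −0.083 with set B alone, and with a library left out they ranged from −0.25 to 0.35 for Hsbp1l1, −0.048 to 0.42 for Nrip3 and −1.23 to 1.08 for Tmem61. The effect of Sprr2f in set C less that in set B was called without a filter (2.75, adjusted p = 0.027) and in the likelihood ratio test (2.72, adjusted p = 0.013), with a range of 2.39 to 3.07 over the libraries left out. For Tmem61 this range was −0.46 to 0.029 and for Hsbp1l1 −1.30 to −0.80. With a library left out this effect was called for Sprr2f in 3 of 18 fits (lowest adjusted p = 0.019, edgeR) and for Hsbp1l1 in 1 of 18 (0.040).

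The 47 genes called in the Flcn/Tfe3 cross became 96 in DESeq2, 88 in the likelihood ratio test, 26 with Xist, 28 with the mitochondrial share, 2 with the replicate block, 8 in set B alone and 569 in set C alone, with a range of 30 to 53 over the libraries left out. In the Flcn/Tfeb cross 1 gene was called with the spread shared over set A, and 0 to 1 with a library left out. The 3 genes of the interaction became 7 in DESeq2, 7 in the likelihood ratio test, 0 with the mitochondrial share, 0 with the replicate block, 0 and 1 with only set B or set C, ranging from 1 to 74. The 162 genes that differed between sets became 0 on library totals, 398 without a filter, 716 in DESeq2, 542 in the likelihood ratio test, 84 with Xist, 0 with the mitochondrial share and 0 with the replicate block, ranging from 0 to 1690. Nothing in the labels says that same-numbered libraries share a litter or a batch. The r of same-numbered libraries ran from −0.35 to 0.27, and in 3 of 13 pairs the library was most like its own number. In set C these numbers are not those in the names of the count columns, and pairs by column name were not compared. These r cannot exclude a pairing, so it is not known whether the replicate block removed a real one.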
